A study of Mus musculus with 6 samples.

Results

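The BCL2 family decides whether mitochondria release the factors that start apoptosis. Its anti-apoptotic proteins hold the pore-forming effectors and their activators in check, the BH3-only proteins bind and neutralise the anti-apoptotic proteins or activate the effectors, and the effectors open the outer mitochondrial membrane. In macrophages, lipopolysaccharide (LPS) signals through TLR4 to NF-κB and MAP kinases, and the A1 genes (Bcl2a1) are known as NF-κB targets of this pathway. Mcl1 encodes a short-lived protein, and BIM (Bcl2l11), PUMA (Bbc3) and NOXA (Pmaip1) are BH3-only proteins often controlled through the amount of their transcripts.

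The genes described here are 10 of the 55335 listed in the count table, picked by symbol from a list of family genes that was drawn up with earlier results of these data known. They are the anti-apoptotic genes Bcl2, Bcl2l1, Mcl1, Bcl2a1a, Bcl2a1b and Bcl2a1d, the BH3-only genes Bcl2l11, Bbc3 and Pmaip1, and the effector Bax. All 10 were present in the table and all 10 passed the filter on low counts. Total RNA was measured in bone marrow-derived macrophages (BMDMs) of wild-type C57BL/6 mice, the genotype of all libraries, which were grown from marrow cells in L929-conditioned medium as a source of the growth factor M-CSF. PBS was given to the cells of 3 control libraries and LPS to the cells of 3 others, and all were collected after 1 h. The comparison asks how the early LPS response changes the transcripts of the family. The labels give no LPS dose and do not say whether the replicates came from separate mice, so p-values measure the spread between these libraries, which may be technical.

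Library totals lay between 37787611 and 41516330 counts. Levels are given as CPM, counts relative to the library total, after scaling with TMM factors, which lay between 1.148 and 1.153 in the PBS libraries and between 0.8642 and 0.872 in the LPS libraries, so that this scaling bears on every fold change. Tnf, Il1b and Nfkbia, used as a check of the LPS label, were higher in each of the 3 LPS libraries than in any PBS library, by 6.83, 11.77 and 4.79 on the log2 scale. Macrophage markers, mostly Lyz2, summed to between 29929 and 31211 CPM with PBS and between 35866 and 36224 CPM with LPS. The largest part of this difference came from Cd14, with means of 398 CPM with PBS and 3621 CPM with LPS. Fcgr1 was lower with LPS (396 and 284 CPM), Mertk overlapped, and the other macrophage markers were higher. Neutrophil and granulocyte precursor markers summed to 15.3 to 18.1 and 20.4 to 22.3 CPM, with Ly6g at or under 3 counts in every library. Dendritic cell markers summed to 2.23 to 2.66 and 6.80 to 7.62 CPM, T cell markers, mostly Cd4, to 20.7 to 22.7 and 30.9 to 31.5 CPM, B cell markers to 2.88 to 3.17 and 2.88 to 3.63 CPM, and fibroblast markers to 11.3 to 12.3 and 14.4 to 15.8 CPM. Neutrophils also express Bcl2a1 genes, and the part of such cells in the values below was not tested.

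The A1 genes are near-identical copies on chromosome 9, so their sequences set what the counts can resolve. In GENCODE M21 on GRCm38, Bcl2a1d (ENSMUSG00000099974.1) lies at chr9:88723285-88731914 on the minus strand, Bcl2a1a (ENSMUSG00000102037.1) at chr9:88956900-88962419 on the plus strand and Bcl2a1b (ENSMUSG00000089929.1) at chr9:89199209-89207827 on the plus strand. Each has 1 annotated transcript of 2 exons with 516 coding bases. The coding sequences differ at 11 bases between Bcl2a1a and Bcl2a1b (97.9% identity), at 7 between Bcl2a1a and Bcl2a1d (98.6%) and at 6 between Bcl2a1b and Bcl2a1d (98.8%). The first 120 coding bases hold 7 of the 12 positions at which any of the 3 differ, and are shown from the GENCODE M21 transcripts, 5′ to 3′, with those positions in capitals.
Bcl2a1a: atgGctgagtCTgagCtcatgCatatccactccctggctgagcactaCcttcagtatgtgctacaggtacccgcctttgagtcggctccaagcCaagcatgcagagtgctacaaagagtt
Bcl2a1b: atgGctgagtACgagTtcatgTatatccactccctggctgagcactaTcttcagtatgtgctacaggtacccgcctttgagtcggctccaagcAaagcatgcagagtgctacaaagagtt
Bcl2a1d: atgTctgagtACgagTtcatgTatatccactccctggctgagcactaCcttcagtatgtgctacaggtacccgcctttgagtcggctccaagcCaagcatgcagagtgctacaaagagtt

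Of the 719 windows of read length in the Bcl2a1a transcript, 310 (43.1%) also occur in a transcript of another gene, against 404 of 717 (56.3%) for Bcl2a1b and 412 of 763 (54.0%) for Bcl2a1d. The other genes are the remaining A1 copies and Gm29094, a gene model that shares 401 exonic bases with Bcl2a1b on the same strand and held 0 to 16 counts per library. A read from a window shared between A1 copies does not by itself show which copy it came from. The other read of its pair may do so. Some windows of Bcl2a1b were shared with Gm29094 alone and not with another A1 copy, so its 56.3% is not all sharing between copies. How the counting treated reads from shared windows is not given in the sources used here. The values of the single copies are therefore uncertain, while no window outside Gm29094 was shared with a gene other than an A1 copy. None of the windows of Bcl2l1, Bcl2l11, Mcl1, Bbc3 and Pmaip1 occurred in an annotated transcript of another gene. The genome outside annotated transcripts was not searched. For Bcl2, 4.4% of windows were shared with the antisense gene D630008O14Rik, which held 0 counts in every library, and for Bax 5.3% with the overlapping gene model Gm45808, which held at most 1 count.

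**Figure D1:**
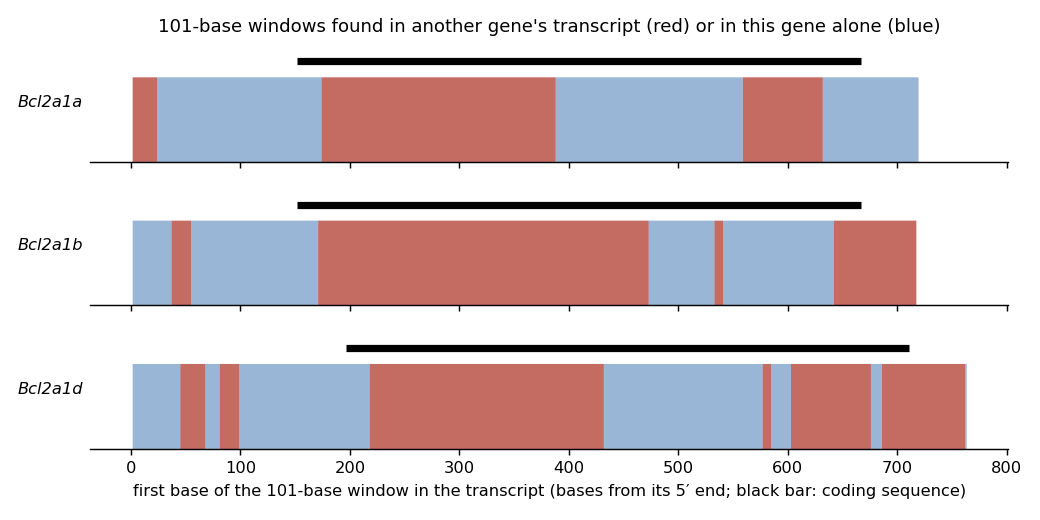
Windows of read length along the transcripts of Bcl2a1a, Bcl2a1b and Bcl2a1d by the position of their first base from the 5′ end, with the coding sequence as a black bar. Red windows also occur in another gene's transcript (43.1%, 56.3% and 54.0% of the windows) and blue windows do not, and the longest red stretch of each copy lies in its coding sequence. For Bcl2a1b, part of the red windows occur in Gm29094 alone and not in another A1 copy.

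Over aligned bases, with gaps left out, the promoters of the 3 copies are about as close as their coding sequences. RefSeq windows of 300 bases, from 250 before to 50 after the annotated start, were 99.2% identical over 256 aligned bases between Bcl2a1a and Bcl2a1b, 98.0% over 294 between Bcl2a1a and Bcl2a1d, and 98.8% over 250 between Bcl2a1b and Bcl2a1d. They are shown because each holds the AP-1 motif TGANTCA, here TGAATCA in capitals. It starts 120, 164 and 114 bases before the RefSeq start of Bcl2a1a, Bcl2a1b and Bcl2a1d. Just after this motif Bcl2a1d lacks a few bases that Bcl2a1a and Bcl2a1b have, a gap that the percentages leave out. The bases are those upstream of the first start that RefSeq or GENCODE annotates, from GRCm38.p6, at chr9:88956670-88956899 (plus strand) for Bcl2a1a, chr9:89199023-89199208 (plus) for Bcl2a1b and chr9:88731915-88732100 (minus) for Bcl2a1d, each written 5′ to 3′ along its gene.
Bcl2a1a: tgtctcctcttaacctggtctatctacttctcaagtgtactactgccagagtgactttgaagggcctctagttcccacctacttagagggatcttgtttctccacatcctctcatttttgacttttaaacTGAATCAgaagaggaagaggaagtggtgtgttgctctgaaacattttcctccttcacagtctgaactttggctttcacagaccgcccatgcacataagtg
Bcl2a1b: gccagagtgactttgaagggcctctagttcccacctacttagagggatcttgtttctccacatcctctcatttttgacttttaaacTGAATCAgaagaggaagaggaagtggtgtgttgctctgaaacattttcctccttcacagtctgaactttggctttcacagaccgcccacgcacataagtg
Bcl2a1d: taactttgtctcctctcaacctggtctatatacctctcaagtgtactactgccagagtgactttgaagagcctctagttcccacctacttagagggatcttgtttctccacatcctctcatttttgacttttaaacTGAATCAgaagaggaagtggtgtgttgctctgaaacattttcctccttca

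Motifs were searched on both strands in the 14 RefSeq windows of 9 members, with Pmaip1 left out. TGANTCA occurred in 3 windows, those of the 3 copies, against 7.81% of 32851 windows over all genes, and since the copies are nearly the same sequence these are not independent matches. The κB consensus occurred in 1 window each of Bbc3 and Bcl2l1, against 4.51% of all windows. In Bbc3 the match lay 137 bases before the start and in Bcl2l1 242 bases before it. A p53 half-site consensus occurred in the window of Bax, against 8.36% of all windows, and the CRE motif TGACGTCA in 0 of the 14, against 1.79%. These matches describe letters in the windows, and no binding was measured.

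After 1 h of LPS the family moved in both directions. By the quasi-likelihood test of edgeR, with p-values adjusted by Benjamini-Hochberg over the 15687 tested genes, 9 of the 10 members passed an adjusted p of 0.05, against 67.7% of all tested genes. Of these, 8 rose, against 32.9% of all genes, 1 fell (Bbc3), against 34.9%, and Bax did not pass. With the further criterion of an absolute log2 fold change above 1, 5 members rose, against 10.5% of all genes, and 1 fell, against 10.4%. The 5 were Bcl2a1a, Bcl2a1d, Bcl2a1b, Bcl2l11 and Pmaip1. The A1 copies among them are near-identical and share windows, so they are not independent members in the counts and the median given here. The median log2 fold change over the 10 members was 1.29, beside −0.01 over all tested genes. When libraries were scaled by their totals alone, which moved the median of all genes by −0.40, 6 members rose and 3 fell, beside 2355 rises and 10336 falls over all genes. In 8 members every LPS library lay above every PBS library, a pattern found in 33.9% of all genes. Bbc3 had every LPS library below every PBS library, as did 36.6% of all genes, and Bax alone overlapped. In bulk RNA, a change in the number of cells that express a gene and a change in RNA per cell cannot be told apart.

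**Figure D2:**
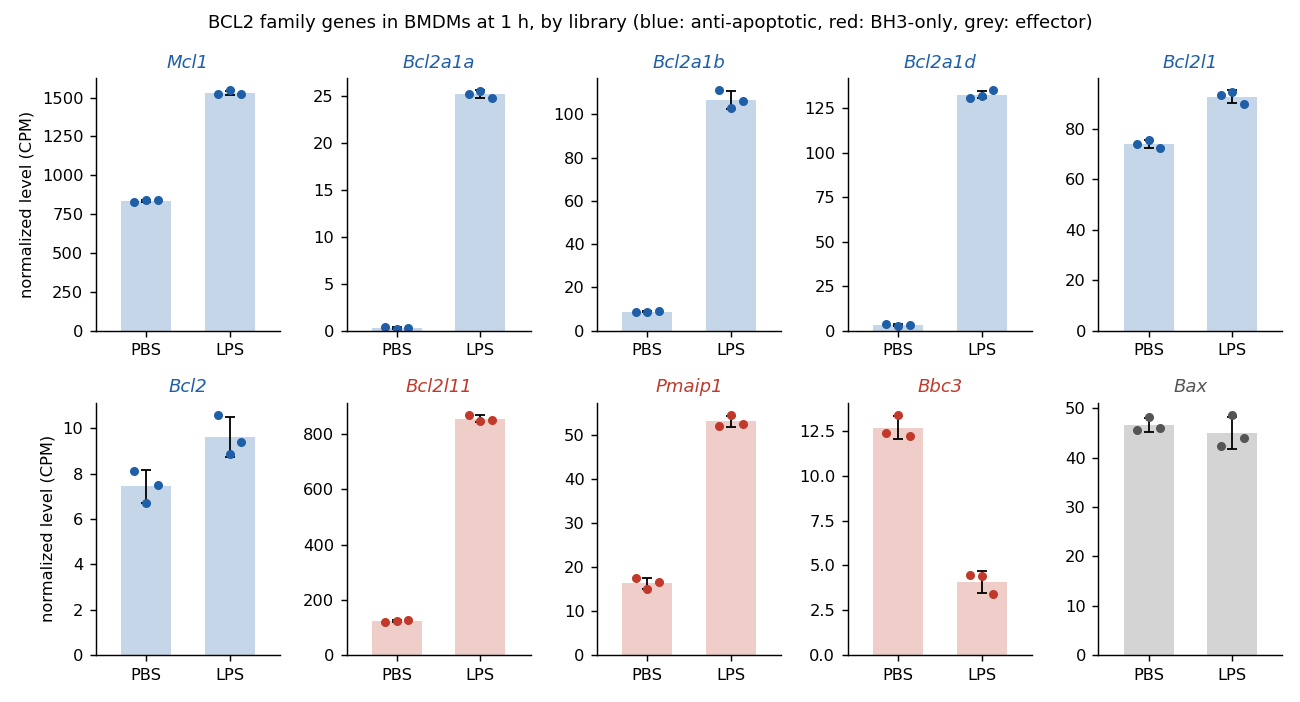
Normalized level (CPM, linear axes from 0, a separate scale for each gene) of the 10 members in each of 3 PBS and 3 LPS libraries, with points for libraries, bars for means and error bars for 1 SD. The LPS points lie above the PBS points in 8 genes and below them in Bbc3, and in Bax they overlap.

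Among the anti-apoptotic genes, the 3 A1 copies rose the most. Bcl2a1a had 16, 8 and 15 counts in the PBS libraries and 848, 836 and 845 in the LPS libraries. The gene thus had few counts in resting cells and many with LPS, with groups far apart. Its mean level went from 0.279 ± 0.0887 to 25.2 ± 0.393 CPM (± SD over n = 3), which is 6.47 ± 0.12 on the log2 scale (± standard error, as for all fold changes below, adjusted p = 1.94e-18) and placed it 105th from the highest among the tested genes. At so few PBS counts the fold depends on single reads, and without any 1 library it lay between 6.24 and 6.63.

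Bcl2a1d had 170, 127 and 141 counts with PBS and 4392, 4295 and 4608 with LPS, with no overlap. Its mean level went from 3.14 ± 0.387 to 133 ± 2.43 CPM, a log2 fold change of 5.39 ± 0.06 at an adjusted p of 5e-22. Bcl2a1b was the best counted of the copies in resting cells, with 418, 383 and 417 counts with PBS, and reached 3725, 3374 and 3621 with LPS. It rose from 8.76 ± 0.28 to 107 ± 3.84 CPM, a log2 fold change of 3.61 ± 0.05 at an adjusted p of 8.01e-21. The order of the copies in level per exonic length thus changed, from Bcl2a1b above Bcl2a1d above Bcl2a1a in each PBS library to Bcl2a1d above Bcl2a1b above Bcl2a1a in each LPS library.

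The ratio of the copies within a library does not depend on the scaling between libraries. On the log2 scale of counts with a pseudocount of 0.5, Bcl2a1b over Bcl2a1a was 4.66, 5.50 and 4.75 with PBS and 2.13, 2.01 and 2.1 with LPS. The same ratio of Bcl2a1d over Bcl2a1a was 3.37, 3.91 and 3.19 with PBS and 2.37, 2.36 and 2.45 with LPS. Both ratios were lower in every LPS library, by 2.89 and 1.10 on average. An exact two-sided permutation test gave p = 0.1 for each of the 5 ratios between members that were compared, the smallest p that 3 against 3 libraries allow, and 0.1 after adjustment over the 5. The windows shared between copies bear on these ratios, and their part was not tested.

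The A1 family has a further annotated copy, Bcl2a1c (ENSMUSG00000053820.4, chr9:114330135-114330578), which is not among the 10. It had 0 counts in each PBS library and 23, 12 and 13 with LPS. Against a floor of 3 counts per library, it was at least 7.2-fold higher with LPS. Its transcript is 96.4% identical to that of Bcl2a1a, 95.3% to that of Bcl2a1b and 95.9% to that of Bcl2a1d over the aligned bases. It shares no whole window of read length with them. Whether some of its few reads came from the other copies was not tested.

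Mcl1 (ENSMUSG00000038612.16, chr3:95658788-95663176, plus strand), whose protein sequesters BIM, NOXA and BAK, was the member with the most counts. It had 39448, 37968 and 38752 counts with PBS and 51141, 50482 and 51846 with LPS. Its level was 828, 840 and 839 CPM in the PBS libraries and 1523, 1546 and 1523 CPM in the LPS libraries, so the groups were separate with little spread. The rise was 1.83-fold, a log2 fold change of 0.87 ± 0.03 at an adjusted p of 3.89e-14, short of the fold criterion.

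Bcl2l1 (ENSMUSG00000007659.18, chr2:152780668-152831728, minus strand), which encodes BCL-XL, had 3526, 3418 and 3337 counts with PBS and 3137, 3090 and 3062 with LPS. The counts were lower with LPS, while the levels after TMM scaling were higher, at 74.0, 75.6 and 72.3 CPM with PBS and 93.4, 94.6 and 89.9 CPM with LPS. The log2 fold change was 0.32 ± 0.04 at an adjusted p of 3.01e-07, and −0.08 where only library totals were used for scaling (adjusted p = 0.0486), so its direction rests on the scaling.

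Bcl2 (ENSMUSG00000057329.7, chr1:106538178-106714274, minus strand), the founding anti-apoptotic member, was low in these cells. It had 388, 303 and 346 counts with PBS and 357, 289 and 320 with LPS, that is 8.14, 6.70 and 7.49 CPM against 10.6, 8.85 and 9.40 CPM. The lowest LPS library stood just above the highest PBS library. The log2 fold change was 0.37 ± 0.09 at an adjusted p of 0.00185 and turned to −0.03 with library size alone (adjusted p = 0.738).

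Next, the BH3-only genes were compared, and they did not move together. Bcl2l11 (ENSMUSG00000027381.16, chr2:128126038-128162547, plus strand) encodes BIM, which can activate BAX and BAK directly and binds all the anti-apoptotic proteins. It had 5728, 5565 and 5849 counts with PBS and 29215, 27641 and 28949 with LPS. Its level was 123 ± 3.24 CPM with PBS and 856 ± 12.7 CPM with LPS, a 6.94-fold rise with a log2 fold change of 2.79 ± 0.04 at an adjusted p of 5.04e-21. A pro-apoptotic gene thus showed the largest rise among the members outside the A1 copies.

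Pmaip1 (ENSMUSG00000024521.8) encodes NOXA, which binds MCL1 and A1. It had 827, 672 and 762 counts with PBS and 1746, 1780 and 1788 with LPS, and the groups did not overlap. Its level rose 3.26-fold, from 16.2 ± 1.27 to 53 ± 1.33 CPM, with a log2 fold change of 1.70 ± 0.05 at an adjusted p of 4.08e-15.

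Bbc3 (ENSMUSG00000002083.13, chr7:16308393-16318205, plus strand) encodes PUMA, a p53 target that binds all the anti-apoptotic proteins. It had 589, 604 and 564 counts with PBS and 149, 143 and 115 with LPS. Its level fell 3.11-fold, from 12.6 ± 0.623 to 4.06 ± 0.596 CPM, a log2 fold change of −1.64 ± 0.10 at an adjusted p of 5.37e-11, and it ranked 659th from the lowest among the tested genes. On the log2 scale, the ratio of Bbc3 to Pmaip1 was −0.49, −0.15 and −0.43 with PBS and −3.55, −3.63 and −3.95 with LPS, so transcripts that were counted about equally in resting cells stood apart in every LPS library.

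Bax (ENSMUSG00000003873.11, chr7:45461697-45466898, minus strand), the pore-forming effector, had 2173, 2178 and 2129 counts with PBS and 1423, 1589 and 1497 with LPS. After scaling the levels were 45.6, 48.2 and 46.1 CPM and 42.4, 48.7 and 44.0 CPM, and the groups overlapped. The log2 fold change was −0.05 ± 0.05 at an adjusted p of 0.366. With upper quartile scaling it was −0.19 (adjusted p = 0.00194) and with library size alone −0.46 (adjusted p = 1.52e-07), so whether Bax passes the test depends on the scaling. The log2 ratio of Bcl2l11 to Bax, which needs no scaling, went from 1.4, 1.35 and 1.46 to 4.36, 4.12 and 4.27.

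**Figure D3:**
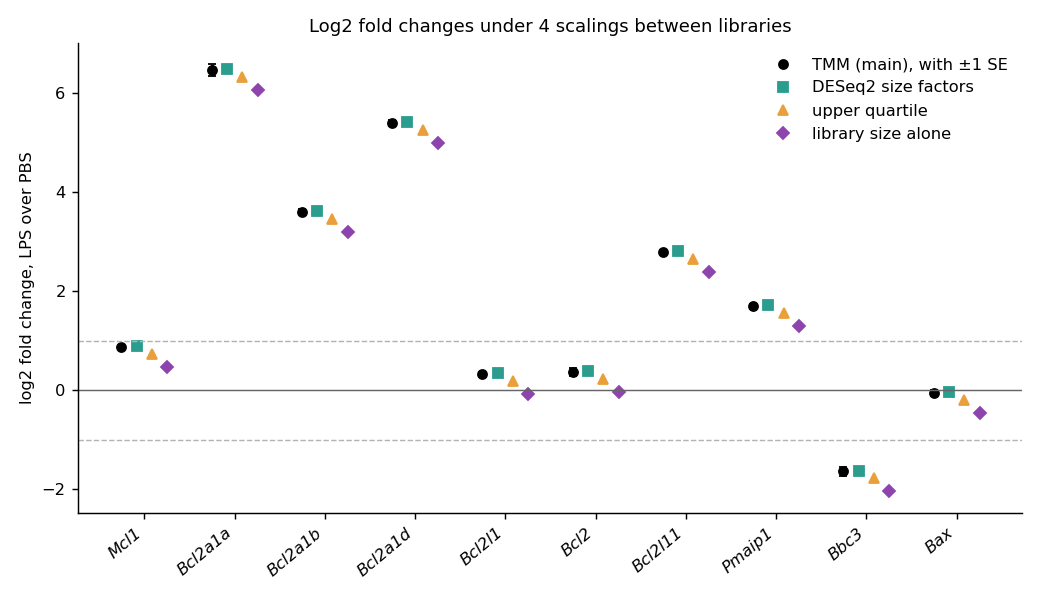
Log2 fold change of LPS over PBS for the 10 members under 4 ways of scaling the libraries, with 1 standard error on the TMM values and dashed lines at the fold criterion of 1 in either direction. Each gene shifts down by about the same amount with library size alone, which brings Bcl2 to −0.03, Bcl2l1 to −0.08 and Bax to −0.46 and leaves the 6 larger changes and Mcl1 on their side of 0.

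To compare genes with each other, levels were divided by the exonic length of the gene (CPM per kilobase). In resting cells Mcl1 was the highest member at 245 ± 1.97 CPM per kilobase, followed by Bax at 29.6 ± 0.864, Bcl2l1 at 16.1 ± 0.363 and Bcl2l11 at 15.4 ± 0.403. Below them came Bcl2a1b at 10.7 ± 0.343, Pmaip1 at 5.95 ± 0.464, Bbc3 at 5.95 ± 0.293, Bcl2a1d at 3.64 ± 0.449, Bcl2 at 0.813 ± 0.0788 and Bcl2a1a at 0.341 ± 0.108. The libraries of Bcl2l1 and Bcl2l11 overlapped, as did those of Pmaip1 and Bbc3, and no other neighbours in this order did. The mean transcript length instead put Bcl2l11 (58.0 CPM per kilobase) above Bcl2l1 (50.2). It also put Bbc3 (14.1) above Bcl2a1b (10.7) and Pmaip1 (7.77), so the equal levels of Bbc3 and Pmaip1 rest on the exonic length.

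With LPS, Mcl1 was still first at 448 ± 3.89 CPM per kilobase, and the places below it changed hands. Bcl2a1d at 154 ± 2.81, Bcl2a1b at 131 ± 4.70 and Bcl2l11 at 107 ± 1.59 followed without overlap. Bcl2a1a at 30.8 ± 0.48 and Bax at 28.6 ± 2.07 overlapped, as did Bcl2l1 at 20.2 ± 0.533 and Pmaip1 at 19.4 ± 0.485. Bbc3 at 1.91 ± 0.281 and Bcl2 at 1.05 ± 0.0997 were the lowest, and did not overlap. This order is that of exonic length. With the mean transcript length, Bcl2l11 came second with LPS at 402 CPM per kilobase, above Bcl2a1d at 154 and Bcl2a1b at 131, and Bax at 69.6 and Bcl2l1 at 62.9 lay above Bcl2a1a at 30.8.

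**Figure D4:**
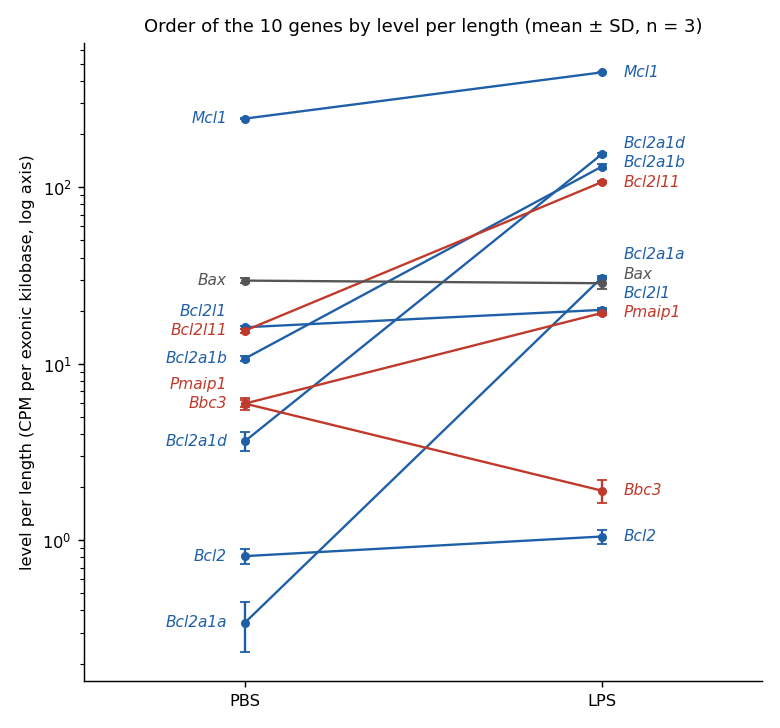
Level per exonic length (CPM per kilobase, log axis) of the 10 members with PBS and LPS, as means of 3 libraries with error bars of 1 SD, in blue for anti-apoptotic, red for BH3-only and grey for effector genes. Mcl1 stays highest (245 and 448), Bcl2a1d goes from the eighth to the second place (the third with the mean transcript length), and Bbc3 falls from 5.95 to 1.91.

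Shares of the summed level per length describe the 6 anti-apoptotic and the 3 BH3-only members, not the whole classes. Other genes of these classes are outside the sums. Among them are Bmf (means of 49.1 CPM with PBS and 8.17 with LPS), Bad (20.8 and 17.3) and Bcl2l2 (17.6 and 19.4). Mcl1 made up 88.2, 88.8 and 88.6% of the 6 anti-apoptotic genes in the PBS libraries and 56.7, 57.7 and 56.9% in the LPS libraries, although its own level rose. The 3 A1 copies together made up 5.57, 5.0 and 5.41% with PBS and 40.5, 39.6 and 40.5% with LPS. Bcl2l1 went from 5.84 ± 0.139% to 2.58 ± 0.0662%. Summing the copies removes the doubt over which copy a shared read belongs to, if each read was counted once. It does not remove the doubt over reads left out, reads counted at more than 1 copy, or reads shared with Gm29094.

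Within the 3 BH3-only members, Bcl2l11 made up 56.3 ± 1.07% with PBS and 83.3 ± 0.526% with LPS. Bbc3 went from 21.8 ± 1.24% to 1.5 ± 0.208%, and Pmaip1 from 21.8 ± 1.65% to 15.2 ± 0.479%. The groups did not overlap in any of these shares. The shares depend on the length used. With the mean transcript length in place of the exonic length the 3 copies made up 3.22% and 28.8%. With shared windows left out of the length, an alternative chosen after seeing the data, they made up 11.2% and 59.4%. This put them above Mcl1 (38.7%) with LPS. That length is apt only if no read from a shared window was counted, which is not known.

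The genes outside the family whose levels were closest to those of Bcl2a1a, the member with the largest fold change, were Il1r2, Clcf1 and Inhba. The distance between profiles was taken over log2 CPM in the 6 libraries and was 0.904, 0.919 and 1.05. Il1r2, the decoy receptor for IL-1, had 12, 7 and 15 counts with PBS and 650, 587 and 591 with LPS. Clcf1, a cytokine of the IL-6 family, had 12, 16 and 15 counts with PBS and 879, 932 and 829 with LPS. Inhba, which encodes the activin A subunit, had 29, 13 and 20 with PBS and 859, 733 and 821 with LPS.

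Of 19 further genes, listed here as other family genes in a broad sense, 14 were tested. Of these, 5 rose, 6 fell and 3 did not pass, beside 32.9% that rose and 34.9% that fell over all tested genes. Their median log2 fold change was −0.04, which is the same with Bcl2a1c at its lower bound. With library size alone 1 rose and 12 fell. The largest fall was that of Bmf, a BH3-only gene whose protein is tied to the cytoskeleton, which had 2352, 2223 and 2255 counts with PBS and 244, 278 and 297 with LPS. Its log2 fold change was −2.59 ± 0.06 at an adjusted p of 3.60e-17, beside −1.64 for Bbc3. Bid, which links death receptors to mitochondria once cleaved, had 1933, 1765 and 1786 counts with PBS and 551, 510 and 506 with LPS, a log2 fold change of −1.34 ± 0.05 at an adjusted p of 9.29e-14.

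Smaller falls were found in Bnip1 (log2 fold change −0.76), Bcl2l12 (−0.67), the BH3-only gene Bad (−0.27) and the effector Bak1 (−0.24). Bak1 had 1978, 1871 and 1801 counts with PBS and 1179, 1148 and 1124 with LPS. Besides Bcl2a1c, the genes that rose did so by little, namely Bcl2l13 (0.23), Becn1 (0.17), the anti-apoptotic gene Bcl2l2 (0.14) and Bnip2 (0.12). The values of Bcl2l14 (0.66), Bnip3l (0.03) and Bnip3 (−0.11) did not pass the test. Bcl2l10, Bok, Bik, Hrk and Bcl2l15 were too low to be tested. Hrk had 0 counts in all libraries, Bcl2l10 at most 1, Bok at most 4, Bik 4 to 16, and Bcl2l15 0, 1 and 0 with PBS and 4, 10 and 4 with LPS.

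The other 4 lists cover what acts downstream and around the family, and their counts stand beside the same 32.9% that rose and 34.9% that fell over all tested genes. The 12 genes of caspases and mitochondrial factors had 4 that rose, 5 that fell and 3 that did not pass, with a median of −0.11. Apaf1, which forms the apoptosome with cytochrome c, rose by 1.16 on the log2 scale, with 6405, 5842 and 6088 counts against 10015, 9335 and 10176. Casp9, the caspase that the apoptosome activates, fell by 0.98, with 1792, 1680 and 1774 counts against 641, 657 and 616, and Casp2 fell by 1.44. With library size alone 1 gene of this list rose and 11 fell.

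Of the 5 inhibitor of apoptosis (IAP) genes, 4 rose and 1 fell (32.9% and 34.9% over all genes), with a median of 0.57. Birc3, a ubiquitin ligase of TNF receptor signalling that is known as an NF-κB target, had 3998, 3591 and 3735 counts with PBS and 17124, 16498 and 17852 with LPS. Its log2 fold change was 2.66 ± 0.04 at an adjusted p of 8.66e-21, beside 2.79 for Bcl2l11. Its relative Birc2 rose by 1.28 and Birc6 by 0.57, and Birc5, which acts in cell division, fell by 0.36.

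Bbc3, Pmaip1 and Bax are textbook p53 targets, and they are here a fall, a rise and a gene that did not pass. Of 13 other genes of the p53 arm, 12 were tested, of which 3 rose, 7 fell and 2 did not pass (32.9% rose and 34.9% fell over all genes), with a median of −0.15. Cdkn1a, the cell cycle inhibitor p21, rose by 3.99, with 894, 1030 and 1065 counts against 11550, 11169 and 11475. Mdm2, the ubiquitin ligase of p53, rose by 2.59, and Sesn1, a stress-induced target, fell by 1.54. Of 10 regulators of MCL1 and BIM, 9 were tested, of which 5 rose, 3 fell and 1 did not pass (again beside 32.9% and 34.9%), with a median of 0.31. Huwe1, a ubiquitin ligase of MCL1, rose by 0.55 and Usp9x, which removes ubiquitin from it, by 0.41. Ddit3 (CHOP), a stress factor that can induce Bcl2l11, fell by 1.26, with 1016, 914 and 903 counts against 285, 294 and 276. With library size alone 1 of these regulators rose and 4 fell.

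**Figure D5:**
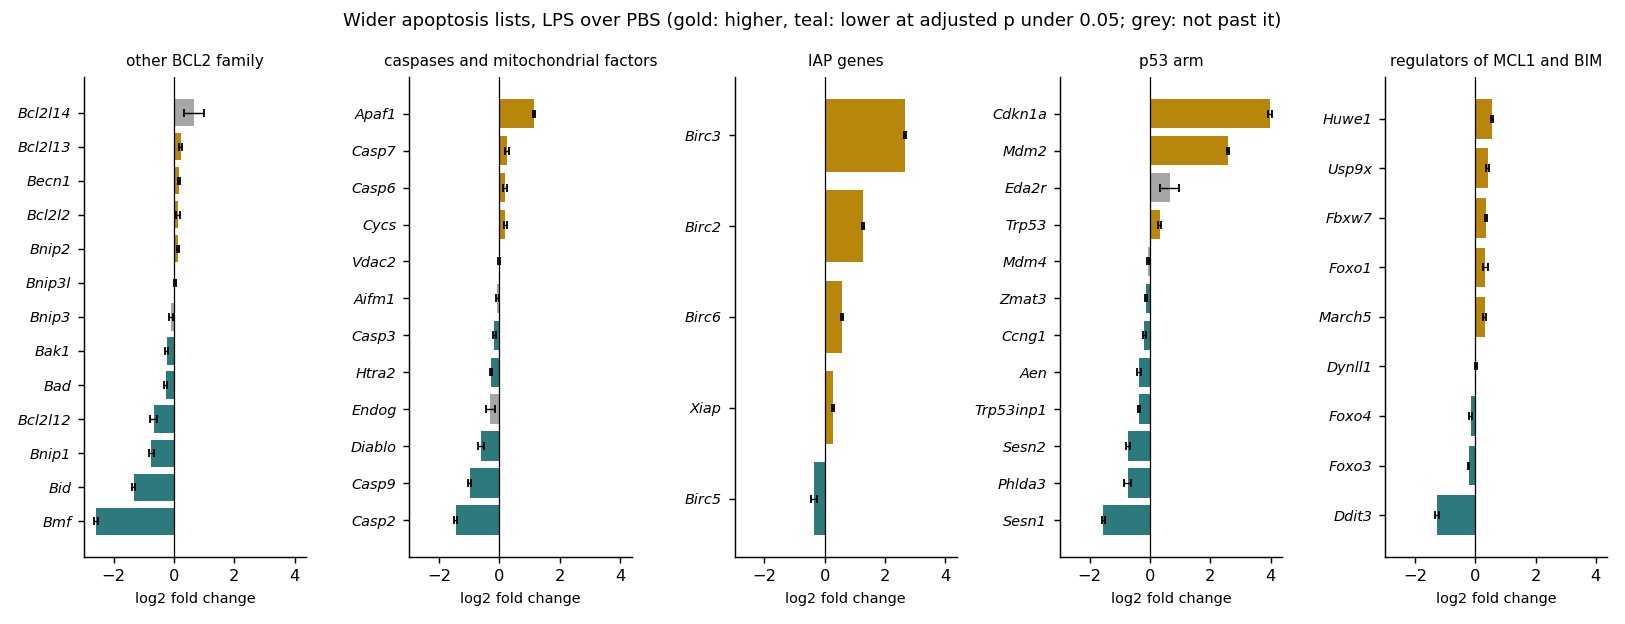
Log2 fold change of LPS over PBS for the tested genes of the 5 wider lists, with error bars of 1 standard error, in gold for higher and teal for lower at an adjusted p under 0.05 and grey for genes that did not pass. Bmf (−2.59), Casp2 (−1.44) and Sesn1 (−1.54) end their lists on the low side, Birc3 (2.66) and Cdkn1a (3.99) theirs on the high side (Bcl2a1c is not drawn).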

How the data were processed

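Raw counts of total RNA-seq reads per gene from 3 PBS and 3 LPS libraries of BMDMs (1 h) were analysed, grouped by the treatment label. The authors aligned paired-end reads of 101 bases to GRCm38 with HISAT2 2.1.0, used SAMtools 1.17 and took gene counts with featureCounts 2.0.0. The deposited counts are raw. The strand setting and the handling of multi-mapping reads are not given in the sources used here. Of 55335 identifiers, 55154 were matched to GENCODE M21.

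The groups were compared by edgeR 4.0.16 under R 4.3.3 (filterByExpr, 15687 genes, TMM scaling, quasi-likelihood test, Benjamini-Hochberg adjustment over all tested genes). The common biological coefficient of variation was 0.0426. At these depths 3 counts in a library correspond to 0.063 to 0.0919 CPM, and such floors cover counting error only. On simulated counts 190 of 200 genes given a log2 change of 2 were recovered, with 1 false call. Rises and falls were equal in number there and all other genes were unchanged, while 67.7% of tested genes passed in the data. The simulation therefore says nothing about the scaling between libraries, on which the smaller changes rest. Level per length is CPM over the exonic kilobases of GENCODE M21. Ratios between genes used a pseudocount of 0.5 counts and scipy 1.17.1, and sequences were aligned with Biopython 1.88.

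The members and lists were chosen with earlier results of these data known. Named genes are all members, all other family genes with values, from each further list the 3 largest changes past the test together with the lowest gene where it fell, the 3 profiles nearest to that of the member with the largest change, and 3 genes that check the label. The alternatives were DESeq2 1.42.0 and its size factors, limma 3.58.1 (voom), library size alone, upper quartile scaling, no filter beyond 1 count, a filter of 10 counts in every library, leaving out the 10 genes of highest mean count, a replicate block, each library left out in turn, other lengths and a pseudocount of 2 counts.

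The labels give replicates 1, 2 and 3 in each group and the same number as a batch, without saying what a batch shared. The main tests have no term for it, and a replicate block was fitted as an alternative. Deviations of same-numbered libraries from the group means correlated at −0.0139, 0.0822 and 0.0387. For libraries of different numbers the correlations lay between −0.0817 and 0.0446.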

Additional observations from a re-analysis of the deposited data

How the results depend on the processing

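The 5 rises and 1 fall past both criteria kept their direction and call under every alternative that gave them a value. Bcl2a1a could not be tested with 10 counts required in every library. Log2 fold changes over the alternatives ran from 6.07 to 6.63 for Bcl2a1a, 4.99 to 5.49 for Bcl2a1d, 3.20 to 3.63 for Bcl2a1b, 2.39 to 2.81 for Bcl2l11, 1.3 to 1.75 for Pmaip1, −2.04 to −1.52 for Bbc3 and 0.47 to 0.89 for Mcl1. Scaling was the choice that mattered for the smaller changes. Against TMM, library size alone moved the median of all genes by −0.40 and upper quartile scaling by −0.14. Bcl2 reversed to −0.03 and Bcl2l1 to −0.08 with library size alone. The number of members that fell was 3 by library size alone and 2 by the upper quartile, Bax being the gene added in both. Over all genes, library size alone gave 2355 that rose and 10336 that fell, 2962 of the falls past both criteria, and the filter of 10 counts in every library left 1027 such falls. With library size alone the other family genes gave 1 rise and 12 falls, the caspase list 1 and 11, the IAP genes 2 falls and the regulators 1 rise. With upper quartile scaling the other family genes gave 1 rise and the caspase list 1 rise and 8 falls, and with 10 counts in every library the other family genes gave 3 rises. With the mean transcript length, Mcl1 made up 85.5% (PBS) and 65.3% (LPS) of the anti-apoptotic members and the A1 copies 3.22% and 28.8%. Bcl2l11 then made up 72.6% and 93.1% of the BH3-only members. Without shared windows in the length, Mcl1 made up 83.0% and 38.7% and the A1 copies 11.2% and 59.4%. That length assumes that no read from a shared window was counted.

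With the replicate number as a block, 8 members rose and 1 fell as without it, and the block changed no member's call; over all genes it gave 5324 rises and 5595 falls. Leaving out any 1 library changed no member's call. At 8 to 16 counts per PBS library, depth limits the fold of Bcl2a1a, and shared windows limit that of each A1 copy.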
